A study of Mus musculus with 6 samples.

Results

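The mesenchymal progenitors of muscle that can become fibroblasts or adipocytes, called fibroadipogenic progenitors (FAPs), are recognized by a small set of marker genes, and 10 of these genes were followed from control to senescent cultures. The set holds the PDGF receptor genes Pdgfra and Pdgfrb, the surface antigen genes Ly6a, Thy1 and Cd34, the transcription factor genes Osr1 and Tcf7l2, and Pi16, Dpp4 and Cd55, which mark a FAP subtype that lies around vessels and within fascia. They were chosen by name, and all 10 were among the 16894 genes listed. FAPs had been isolated from the limb muscle of C57BL/6 mice of either sex, aged 3 to 6 months, by magnetic sorting of cells negative for CD45, CD31 and α7-integrin and positive for SCA-1, the product of Ly6a, and were grown in medium with serum and bFGF. Control (non-senescent) FAPs were compared with FAPs made senescent by etoposide, a topoisomerase poison that breaks DNA, given at 20 μM over 48 h with 5 days of normal medium thereafter. Each group had 3 cultures, numbered 1 to 3.

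PDGF receptor alpha is the receptor by which FAPs are usually defined, and signaling through it drives their proliferation and fibrogenic activity, whereas PDGF receptor beta is shared with pericytes and other mural cells. SCA-1, THY1 (CD90) and CD34 are surface antigens common to mesenchymal progenitors of several tissues. OSR1 marks FAPs during development and after injury, and TCF7L2, a transcription factor of the Wnt pathway, marks the connective tissue fibroblasts of muscle. FAPs that express Pi16, Dpp4 and Cd55 are held to be an early, less committed pool, while FAPs that express Cxcl14 and Lum sit in the muscle interstitium.

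Values are CPM, read counts relative to library size as scaled by the authors in edgeR, and each library had 41412179 to 59912520 reads on genes. Differences were tested with limma on log2(CPM + 0.5), where positive values are higher in senescent FAPs, and p values are Benjamini-Hochberg adjusted over the 14776 genes that reached 0.5 CPM in 3 or more libraries, among them all 10 markers. The added 0.5 CPM shrinks the change of weakly expressed genes. Cultures of the same number resembled each other beyond their group. Xist, the RNA of the inactive X chromosome, had 0.0670, 553 and 0 CPM in control cultures 1, 2 and 3 and 0.199, 487 and 0.158 CPM in senescent cultures 1, 2 and 3. The Y-linked gene Ddx3y had 71.2, 0 and 74.2 CPM in control cultures 1, 2 and 3 and 65.9, 0 and 79.1 CPM in senescent cultures 1, 2 and 3. Culture 2 of both groups thus had Xist and no read of Ddx3y, and the other cultures had Ddx3y and at most a trace of Xist. A fit with the replicate number as a block is therefore given for each marker, related list or named gene whose calls it changed.

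In control FAPs, the order of the markers by CPM per kb of exon, which allows genes of different length to be compared, began with Ly6a at 183 to 379, followed by Pdgfrb at 172 to 195, Thy1 at 13.8 to 163, Pdgfra at 12.6 to 23.7 and Osr1 at 7.09 to 15.1. The ranges of Ly6a and Pdgfrb overlapped, as did those of Thy1 and Pdgfra and those of Pdgfra and Osr1. Lower on this scale were Tcf7l2 at 3.27 to 3.93 and Cd34 at 2.62 to 3.69, whose ranges overlapped, then Cd55 at 0.547 to 2.37 and Pi16 at 0.460 to 0.688, which overlapped as well, and Dpp4 at 0.117 to 0.418 CPM per kb, below every Pi16 value. The 3 markers of the vessel-associated subtype were therefore the lowest of the 10 in control cultures. In senescent FAPs, Cd55 had 5.36 to 14.4 CPM per kb and ranked above Osr1 at 4.74 to 7.85 and Tcf7l2 at 3.45 to 4.16, with a range that overlapped those of Osr1 and of Cd34 at 7.64 to 12.3. Ly6a, Pdgfrb, Thy1 and Pdgfra kept ranks 1 to 4, and Pi16 and Dpp4 ranks 9 and 10. Exon lengths came from GENCODE M21.

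Of the 10 markers, 4 rose in senescent compared to control FAPs (Cd55, Cd34, Ly6a and Pi16), 1 fell (Osr1), and 5 did not pass the test (Pdgfra, Pdgfrb, Thy1, Tcf7l2 and Dpp4). This share lay near the background, as 46.1% of all genes tested passed, 21.8% of all genes as higher and 24.3% as lower. The median log2 fold change of the markers was 0.39, and that of all genes −0.03. For 5 markers (Pdgfrb, Ly6a, Cd34, Pi16 and Cd55) the values of the groups did not overlap, which held for 57.4% of all genes. With the replicate block, 5 markers were higher and 1 lower, Thy1 being the one added, against a background of 50.9% of genes called, 24.2% higher and 26.7% lower. With division by library totals in place of edgeR's scaled library sizes, the median of all genes was 0.17 and 72.1% of all calls were higher, against 47.3% with edgeR's scaling. In bulk RNA, fewer cells of a type and less RNA of a gene per cell cannot be told apart.

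**Figure D1:**
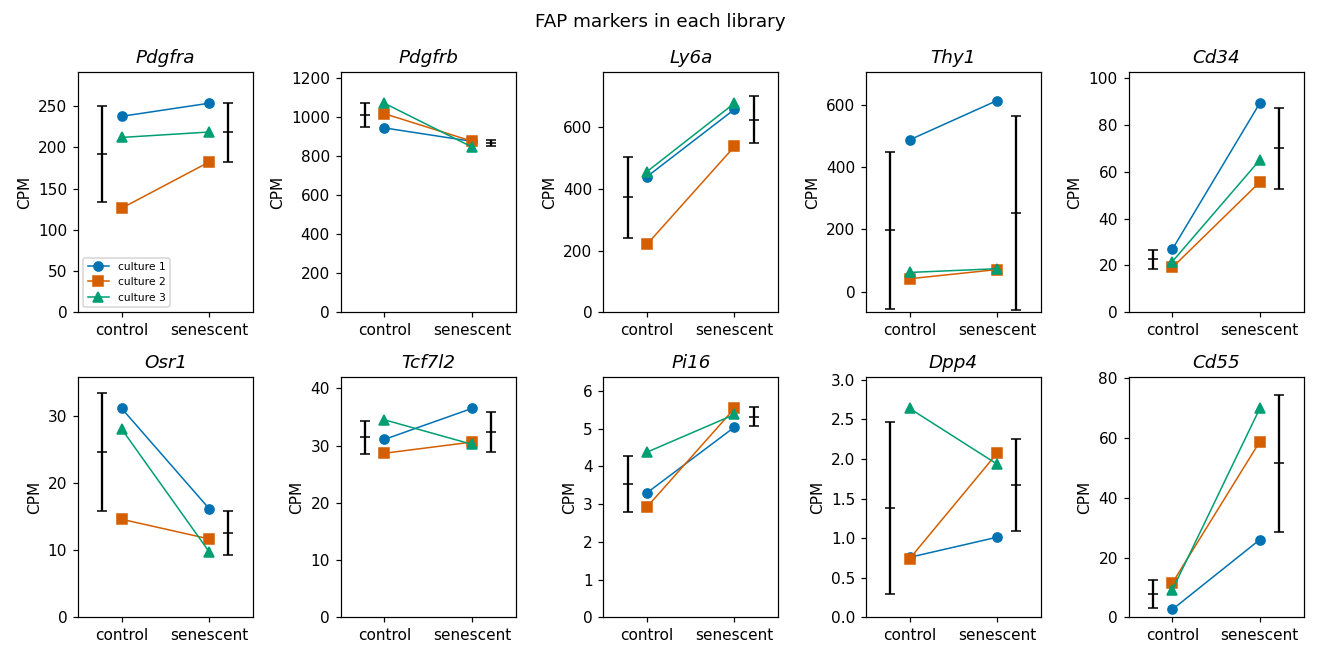
CPM (linear axes) of each marker in the 3 control and 3 senescent cultures, with lines joining cultures of the same number and black bars giving the mean ± SD of each group (n = 3). Cd34 and Cd55 were higher in every senescent than in every control culture, and Thy1 in culture 1 stood far above cultures 2 and 3 in both groups.

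Pdgfra, the defining receptor gene (chr5:75152292-75198215, GRCm38), had 238, 126 and 212 CPM in control cultures 1, 2 and 3 and 254, 182 and 219 CPM in senescent cultures 1, 2 and 3. The groups overlapped, and culture 2 was the lowest of each group. The means were 192 ± 58.4 CPM in control FAPs and 218 ± 35.7 CPM in senescent FAPs (SD, n = 3 each), a log2 difference of 0.22 with a standard error of 0.23 (adjusted p = 0.465). Senescent to control ratios in same-numbered cultures were 1.07, 1.44 and 1.03, so the largest was that of culture 2, which had the lowest control value. Without control culture 2 the log2 fold change was −0.054.

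Pdgfrb had 943, 1016 and 1069.6 CPM in control cultures 1, 2 and 3 and 874, 876 and 846 CPM in senescent cultures 1, 2 and 3. Every senescent culture was below every control culture, but the difference was small, from 1009.6 ± 63.4 CPM in control FAPs to 865 ± 16.9 CPM in senescent FAPs (SD, n = 3 each), a log2 difference of −0.22 with a standard error of 0.092 (adjusted p = 0.0837). It was −0.0080 with division by library totals and 0.0075 after quantile normalization, so no direction can be given for Pdgfrb. Both receptor genes were deeply covered, Pdgfra by 6641 to 11820 reads per control library and 9721 to 12778 per senescent library and Pdgfrb by 42264 to 59587 reads per control library and 37587 to 52331 per senescent library.

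The ratio of the receptor transcripts within a library does not depend on the scaling between libraries. Pdgfrb had 3.97, 8.04 and 5.04 times the CPM of Pdgfra in control cultures 1, 2 and 3 and 3.45, 4.80 and 3.87 times in the senescent ones. The log2 ratio of Pdgfra to Pdgfrb was −2.44 ± 0.52 in control FAPs and −2.0 ± 0.24 in senescent FAPs (SD, n = 3 each), a difference of 0.44 that the test did not separate from the spread (two-sided exact permutation test, p = 0.2, where 0.1 is the smallest that 3 against 3 allow). The ratio was higher in the senescent culture of all 3 pairs, by 0.20, 0.74 and 0.38 on the log2 scale.

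The ligands of these receptors moved in both directions. Of the 4 PDGF ligand genes, 2 rose and 2 fell, where 21.8% of all genes tested rose and 24.3% fell. Pdgfc, which encodes the main activating ligand for PDGF receptor alpha besides PDGF-A, fell from 196 ± 4.29 CPM in control FAPs to 99.3 ± 10.6 CPM in senescent FAPs (SD, n = 3 each), a log2 difference of −0.98 with a standard error of 0.088 (adjusted p = 2.93e-04). Pdgfa fell by 0.40 in log2 units (adjusted p = 0.0231), which did not pass with division by library totals (adjusted p = 0.226), quantile normalization (0.0532) or without any of the senescent cultures 1, 2 and 3 (adjusted p = 0.0675, 0.0588 and 0.0579). Pdgfb, a ligand of both receptors, rose from a low level, from 0.916 ± 0.727 CPM in control FAPs to 2.88 ± 1.17 CPM in senescent FAPs (SD, n = 3 each), with a log2 fold change of 1.31 (adjusted p = 0.0299); it did not pass with quantile normalization (adjusted p = 0.0581) or without control culture 1 or 3 or senescent culture 2 or 3 (adjusted p from 0.0779 to 0.108). Pdgfd, a ligand of PDGF receptor beta, had a log2 fold change of 0.77 (adjusted p = 0.0491) that just passed. It did not pass with edgeR's test (0.0501), a filter at 2 CPM (0.0527), no variance trend (0.0703) or 1 of 4 libraries left out (control culture 1 or 3 or senescent culture 2 or 3, adjusted p from 0.0685 to 0.157), while the blocked adjusted p was 0.00177. With quantile normalization, 1 ligand gene rose (Pdgfd) and 1 fell (Pdgfc).

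Cd34, which encodes a sialomucin of progenitor and endothelial surfaces, had 26.9, 19.1 and 21.6 CPM in control cultures 1, 2 and 3 and 89.4, 55.7 and 65.1 CPM in senescent cultures 1, 2 and 3. Each senescent culture exceeded every control culture, and the ratios in same-numbered cultures were close to each other, at 3.32, 2.91 and 3.01. The means were 22.5 ± 3.97 CPM in control FAPs and 70.1 ± 17.4 CPM in senescent FAPs (SD, n = 3 each), a log2 difference of 1.60 with a standard error of 0.19 (adjusted p = 6.99e-04). Cd34 passed in all 25 alternatives, with a log2 fold change from 1.41 to 1.81 and a highest adjusted p of 0.0236. Reads on Cd34 numbered 1005 to 1205 per control library and 2893 to 4503 per senescent library.

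Ly6a (chr15:74994877-74998031, GRCm38) encodes SCA-1, the antigen on which the FAPs of both groups had been selected before culture. It had 440.1, 220.4 and 456 CPM in control cultures 1, 2 and 3 and 658, 538 and 678 CPM in senescent cultures 1, 2 and 3. The groups did not overlap, and culture 2 was the lowest of each. The means were 372 ± 132 CPM in control FAPs and 625 ± 76.0 CPM in senescent FAPs (SD, n = 3 each), a log2 difference of 0.81 with a standard error of 0.27 (adjusted p = 0.0393), and the ratios in same-numbered cultures were 1.50, 2.44 and 1.49. Without the block, the call was lost without senescent culture 1, 2 or 3 (adjusted p = 0.0956, 0.067 and 0.122) and without a trend of the variance (0.0578). The blocked adjusted p was 0.00418, and it stayed between 3.12e-04 and 0.0099 with each pair of cultures left out in turn. Ly6c1, a relative of Ly6a in the same gene cluster, had a log2 fold change of 0.70 (adjusted p = 0.0775) and a blocked adjusted p of 0.0134. It had 98.9, 44.0 and 93.7 CPM in control cultures 1, 2 and 3 and 127, 108 and 129 CPM in senescent cultures 1, 2 and 3, with culture 2 again the lowest of each group. As culture 2 alone had Xist, the sex of the cells and the number of the culture cannot be told apart. Counting could have split reads between these similar genes, so their separate values are uncertain to that extent.

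Thy1, which encodes the small glycosylphosphatidylinositol-anchored antigen CD90 (chr9:44043384-44048579, GRCm38), had 489, 41.3 and 61.6 CPM in control cultures 1, 2 and 3 and 615, 70.9 and 73.6 CPM in senescent cultures 1, 2 and 3. Its level differed far more between culture numbers than between the groups. Control culture 1 was 7.93 times the next highest control culture, and senescent culture 1 was 8.36 times the next highest senescent culture. The depth was ample, with 2170 to 21902 reads per control library and 3270 to 30994 per senescent library. Without the block, the log2 fold change of 0.45 had a standard error of 1.09 (adjusted p = 0.756). Within same-numbered cultures, the senescent one was higher in 3 of 3, at ratios of 1.26, 1.72 and 1.19, and with the replicate block Thy1 rose (limma, adjusted p = 0.0127; edgeR's quasi-likelihood test with the block, 0.0137). The blocked adjusted p stayed between 0.00797 and 0.0356 with each pair of cultures left out in turn. Without the block, leaving out 1 library turned the direction, to −0.57 without senescent culture 1 and −0.23 without control culture 2.

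Few genes stood above the other cultures in culture 1 to this degree. Of 10617 genes with a mean of at least 5 CPM, 2 were at least 5 times higher in culture 1 than in both other cultures in each group, Thy1 and Brinp3. The latter had 14.1, 0.818 and 0.969 CPM in control cultures 1, 2 and 3 and 21.4, 2.17 and 1.94 CPM in senescent cultures 1, 2 and 3. This comparison was chosen after the values of Thy1 were seen and is given as a description. Genes lower in culture 1, or set apart in culture 2 or 3, were not counted. Xist and the Y-linked genes set culture 2 apart from cultures 1 and 3, so they do not follow the Thy1 pattern. No other marker came near it. Pdgfra, Cd34 and Osr1 were highest in culture 1 of both groups, by at most 1.39 times the next culture, and Cd55 was lowest in culture 1 of both groups, at 0.231 and 0.372 times the highest other culture of the control and senescent groups.

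**Figure D2:**
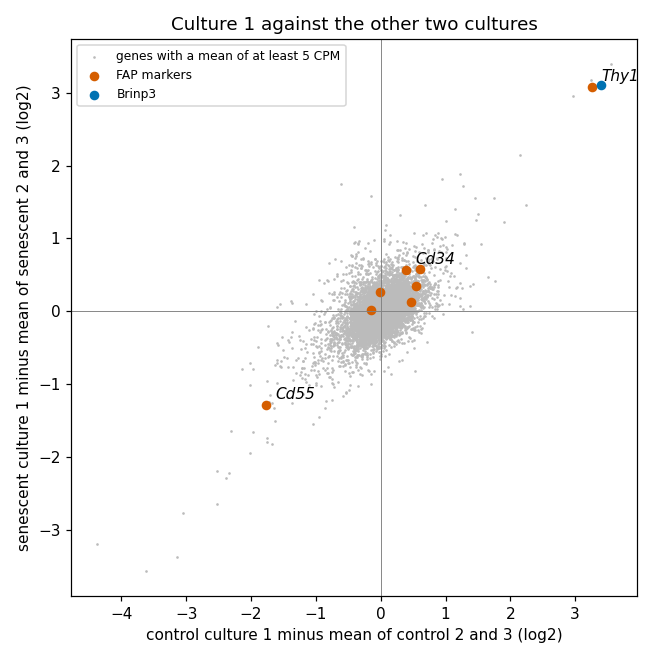
Log2 difference of culture 1 from the mean of cultures 2 and 3 in control FAPs (horizontal axis) and senescent FAPs (vertical axis), on log2(CPM + 0.5), for 10617 genes (grey), 8 of the 10 markers (orange; Pi16 and Dpp4 lie under 5 CPM) and Brinp3 (blue). Thy1 and Brinp3 lie at the upper right, above 3 on both axes, and Cd55 at the lower left; the grey points beside Thy1 include Y-linked genes, which culture 2 lacked.

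Osr1, a transcription factor gene of the embryonic and regenerating FAP lineage (chr12:9570116-9581500, GRCm38), had 31.2, 14.6 and 28.1 CPM in control cultures 1, 2 and 3 and 16.2, 11.7 and 9.79 CPM in senescent cultures 1, 2 and 3. All 3 senescent cultures were below their same-numbered control, at ratios of 0.520, 0.800 and 0.348, but control culture 2 lay below senescent culture 1, so the groups overlapped. The means were 24.6 ± 8.79 CPM in control FAPs and 12.6 ± 3.30 CPM in senescent FAPs (SD, n = 3 each), and Osr1 fell by 0.90 in log2 units with a standard error of 0.30 (adjusted p = 0.0387, blocked adjusted p = 0.0101). Without the block, the call was lost without control culture 1 or 3 (adjusted p = 0.106 and 0.116) and without senescent culture 2 or 3 (0.109 and 0.133). It was also lost with division by library totals, which left a log2 difference of −0.70 (0.0827), and without a trend of the variance (0.0547). The blocked adjusted p stayed between 8.63e-05 and 0.0425 with each pair of cultures left out in turn.

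Tcf7l2 (chr19:55741820-55933654, GRCm38) had 31.1, 28.7 and 34.5 CPM in control cultures 1, 2 and 3 and 36.5, 30.6 and 30.2 CPM in senescent cultures 1, 2 and 3. The groups overlapped almost completely, with 31.4 ± 2.94 CPM in control FAPs and 32.5 ± 3.51 CPM in senescent FAPs (SD, n = 3 each), a log2 difference of 0.044 with a standard error of 0.11 (adjusted p = 0.763). That standard error leaves room for a small change in either direction. Of 4 further genes through which Wnt signals reach the nucleus (Tcf7, Tcf7l1, Lef1 and Ctnnb1, which encodes beta-catenin), 0 passed in limma, and 0 had an unadjusted p under 0.05 there or an adjusted p under 0.05 with edgeR or DESeq2. Their log2 fold changes were 0.039, −0.27, 0.14 and −0.052. Tcf7l1 passed without control culture 2 (−0.41, adjusted p = 0.0266) and with array weights (−0.43, 0.00282). With the replicate block and without both cultures numbered 2, Tcf7l1 (0.0189) and Lef1 (0.53, 0.0157) passed.

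Among 7 other transcription factor genes of muscle mesenchyme, 4 fell and 1 rose, while 24.3% of all genes tested fell and 21.8% rose. Meox1, a homeobox gene, fell from 31.8 ± 2.43 CPM in control FAPs to 13.7 ± 3.26 CPM in senescent FAPs (SD, n = 3 each), a log2 difference of −1.21 with a standard error of 0.16 (adjusted p = 0.00109). Hic1, which marks mesenchymal progenitors, had a log2 fold change of −0.61 (adjusted p = 0.0163), and did not pass with division by library totals (adjusted p = 0.0638) or without senescent culture 2 or 3 (0.0521 and 0.062). Prrx1, a homeobox gene of limb mesenchyme, was the one that rose, with a log2 fold change of 0.42 (adjusted p = 0.0211), not past the threshold without senescent culture 2 or 3 (0.0516 and 0.0773). Twist2 and Meox2 also fell, by 0.44 and 0.78 on the log2 scale, and Osr2, the paralog of Osr1, had −0.37 (adjusted p = 0.146). With the replicate block, 5 of the 7 fell and 1 rose, beside 26.7% and 24.2% of all genes tested. Twist1, a factor of early mesenchyme, was the one added, at a log2 fold change of −0.44 (adjusted p = 0.0846, 0.00724 with the block). Twist1 was lower in the senescent culture of all 3 pairs, at ratios of 0.716, 0.771 and 0.708. With division by library totals, 1 of the 7 fell and 1 rose, where 1929 of all 14776 genes tested fell and 4992 rose.

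The subtype markers Cd55 and Pi16 rose, and Dpp4 did not pass the test. The sequences around the RefSeq starts of these genes and of Cd34 are given because Cd55, Cd34 and Pi16 rose while Dpp4, a partner of Cd55 and Pi16, did not pass the test. The windows run from 250 bases before to 50 after the start of the gene (RefSeq, GRCm38.p6), 5′ to 3′ on the gene's strand, with entries for 6 of the 10 markers. For Pi16, the RefSeq start lies downstream of the start of the GENCODE M21 model (chr17:29317680-29330593), so its window falls inside that gene model and not upstream of it. Capitals mark matches on either strand to 4 short promoter motifs. The GC box, bound by SP1 and related factors, was searched as GGGCGG. The TATA box, on which the initiation complex assembles, was searched as TATAAA. The CCAAT box, bound by NF-Y, was searched by the letters of its name. The AP-1 site, bound by FOS and JUN dimers, was searched as TGACTCA.
Cd55, chr1:130462695-130462994 on the minus strand: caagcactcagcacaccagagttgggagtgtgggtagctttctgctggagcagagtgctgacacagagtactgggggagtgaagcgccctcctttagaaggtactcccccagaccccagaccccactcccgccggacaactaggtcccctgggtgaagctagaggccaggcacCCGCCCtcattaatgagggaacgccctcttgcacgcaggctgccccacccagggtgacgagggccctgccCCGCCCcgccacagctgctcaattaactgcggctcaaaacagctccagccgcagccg
Cd34, chr1:194938571-194938870 on the plus strand: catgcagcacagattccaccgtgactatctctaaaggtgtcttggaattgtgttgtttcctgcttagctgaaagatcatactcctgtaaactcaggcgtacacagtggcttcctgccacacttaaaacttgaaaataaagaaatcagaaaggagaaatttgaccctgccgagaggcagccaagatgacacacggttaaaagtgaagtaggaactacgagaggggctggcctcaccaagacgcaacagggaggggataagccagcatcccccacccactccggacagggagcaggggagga
Pi16, chr17:29318632-29318931 on the plus strand: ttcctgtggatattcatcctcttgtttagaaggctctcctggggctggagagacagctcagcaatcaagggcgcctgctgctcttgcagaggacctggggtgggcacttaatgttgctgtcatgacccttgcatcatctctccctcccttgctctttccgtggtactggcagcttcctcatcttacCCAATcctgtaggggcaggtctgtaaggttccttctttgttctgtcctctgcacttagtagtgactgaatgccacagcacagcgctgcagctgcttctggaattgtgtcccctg
Dpp4, chr2:62412182-62412481 on the minus strand: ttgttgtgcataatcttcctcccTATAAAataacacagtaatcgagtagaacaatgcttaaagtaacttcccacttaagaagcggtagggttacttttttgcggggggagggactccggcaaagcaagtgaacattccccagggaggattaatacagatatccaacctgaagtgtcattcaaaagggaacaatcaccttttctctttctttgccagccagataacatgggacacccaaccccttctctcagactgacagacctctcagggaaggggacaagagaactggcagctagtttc
Cd55 held 2 GC boxes, Pi16 held 1 CCAAT box, Dpp4 held 1 match to the TATA box, and Cd34 held no match. The Dpp4 match lay at bases 24 to 29 of the window, toward its upstream end and away from the start. Over all 32851 such windows, 35.7% held a GC box, 37.4% a CCAAT box, 13.6% a TATA box and 5.20% an AP-1 site. Cd55, Cd34 and Pi16 thus shared none of these motifs in this window. Ly6a, which also rose, was among the markers without an entry.

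Cd55 encodes decay-accelerating factor, which protects cells from complement. It had 2.66, 11.5 and 9.21 CPM in control cultures 1, 2 and 3 and 26.0, 58.8 and 69.9 CPM in senescent cultures 1, 2 and 3. Each senescent culture was above every control culture, and culture 1 was the lowest of each group. The means were 7.78 ± 4.58 CPM in control FAPs and 51.6 ± 22.8 CPM in senescent FAPs (SD, n = 3 each), a log2 difference of 2.75 with a standard error of 0.54 (adjusted p = 0.00537), the largest change among the 10 markers. Ratios in same-numbered cultures were 9.79, 5.12 and 7.59. Cd55 passed with each library left out and did not pass in 1 alternative, without both cultures numbered 3 (log2 fold change 2.69, adjusted p = 0.0591; 3.99e-04 with the block). Cd55b, the neighbouring copy of the gene, which is listed under its older name Daf2, had at most 9 reads per control library and 24 to 35 per senescent library and was too low to test, so its reads were few beside those of Cd55.

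Pi16, which encodes a secreted peptidase inhibitor of the adventitial fibroblast, had 3.30, 2.93 and 4.38 CPM in control cultures 1, 2 and 3 and 5.04, 5.54 and 5.38 CPM in senescent cultures 1, 2 and 3. The groups did not overlap. The means were 3.54 ± 0.754 CPM in control FAPs and 5.32 ± 0.252 CPM in senescent FAPs (SD, n = 3 each), a log2 difference of 0.54 with a standard error of 0.17 (adjusted p = 0.0304), on 148 to 244 reads per control library and 239 to 331 per senescent library. The call was lost whenever control culture 1 or 2 or any senescent culture was left out (adjusted p from 0.0547 to 0.0993), and was kept without control culture 3 (0.0186) and with the block (0.0287).

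Dpp4, which encodes the surface peptidase CD26, had 0.759, 0.742 and 2.64 CPM in control cultures 1, 2 and 3 and 1.01, 2.07 and 1.94 CPM in senescent cultures 1, 2 and 3. The ratios in same-numbered cultures were 1.33, 2.80 and 0.733, so they did not share a direction, and the test gave a log2 difference of 0.32 with a standard error of 0.39 (adjusted p = 0.532). With 34 to 147 reads per control library and 51 to 124 per senescent library, Dpp4 was the least covered of the 10 markers. Fap, the closest relative of Dpp4 and a marker of activated fibroblasts, had a log2 fold change of 0.23 (adjusted p = 0.493).

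**Figure D3:**
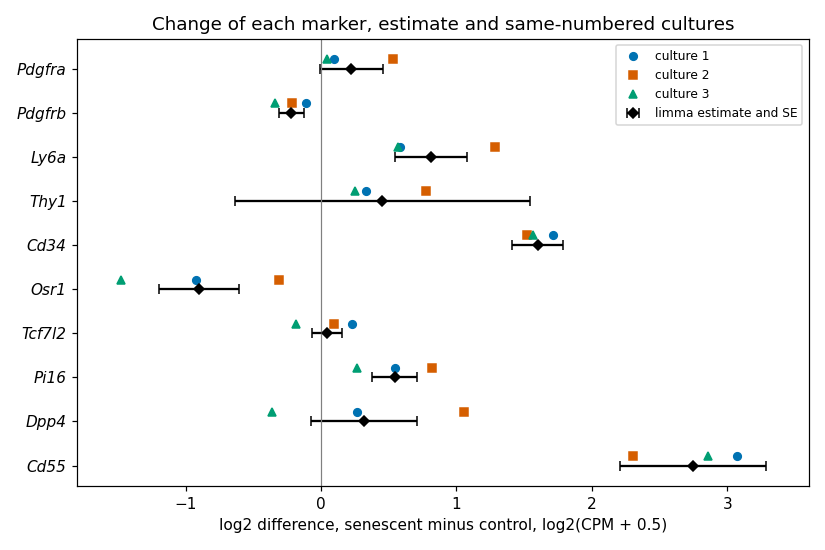
Log2 difference between senescent and control FAPs on log2(CPM + 0.5) for each marker, with the limma estimate and its standard error without the block (black) and the differences between same-numbered cultures (colored). Cd34 and Cd55 lie to the right of 1 in all 3 pairs, and for Thy1 all 3 pairs lie to the right of 0 although the standard error is 1.09.

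Other genes of the Dpp4 and Pi16 subtype went in both directions. Of 14 such genes, 13 were tested, of which 4 rose and 3 fell, with a median log2 fold change of 0.10 beside −0.03 for all genes. With the replicate block 5 rose, Ly6c1 being the one added, beside 24.2% of all genes tested. Fbn1, which encodes fibrillin-1 of microfibrils, fell from 5873 ± 1064 CPM in control FAPs to 2349.6 ± 340.4 CPM in senescent FAPs (SD, n = 3 each), a log2 difference of −1.31 with a standard error of 0.20 (adjusted p = 0.00168). Wnt2, a Wnt ligand gene, rose from 32.3 ± 4.48 CPM in control FAPs to 53.5 ± 2.77 CPM in senescent FAPs (SD, n = 3 each), a log2 difference of 0.73 with a standard error of 0.11 (adjusted p = 0.00195). Igfbp5, which encodes an IGF-binding protein, rose by 1.74 in log2 units (adjusted p = 0.00322). Sema3c and Igfbp6 rose as well, Cd248 and Creb5 fell, and Mfap5 was at 0.0090. Over all genes tested, 21.8% passed as higher and 24.3% as lower without the block, so a mix of directions is not particular to this subtype.

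Of the 11 markers of the interstitial Cxcl14 and Lum subtype, all of them tested, 6 rose and 1 fell. Among all genes tested, 21.8% rose and 24.3% fell. The median log2 fold change of the list was 0.78, beside −0.03 for all genes. Apod, which encodes a lipid-binding apolipoprotein, rose from 3.63 ± 0.257 CPM in control FAPs to 12.2 ± 2.10 CPM in senescent FAPs (SD, n = 3 each), a log2 difference of 1.61 with a standard error of 0.16 (adjusted p = 3.56e-04). Hsd11b1, whose enzyme regenerates active glucocorticoid, rose from 2.40 ± 1.0 CPM in control FAPs to 13.2 ± 1.30 CPM in senescent FAPs (SD, n = 3 each), a log2 difference of 2.29 with a standard error of 0.23 (adjusted p = 4.08e-04). Crispld2, which encodes a secreted protein with a cysteine-rich domain, was the one that fell, from 257 ± 35.0 CPM in control FAPs to 72.7 ± 26.8 CPM in senescent FAPs (SD, n = 3 each), a log2 difference of −1.86 with a standard error of 0.23 (adjusted p = 8.21e-04). Lum itself was low, with 0.179, 0.475 and 0.951 CPM in control cultures 1, 2 and 3 and 3.14, 3.51 and 3.51 CPM in senescent cultures 1, 2 and 3. It rose by 1.98 in log2 units (adjusted p = 0.00117). Cxcl14 had 178, 159 and 188 CPM in control cultures 1, 2 and 3 and 417, 184 and 246 CPM in senescent cultures 1, 2 and 3, and its log2 fold change of 0.61 did not pass without the block (adjusted p = 0.0931; 0.0283 with it). Whether this list differed from the other subtype list was not tested.

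Among 5 tested markers of further FAP states, 3 rose, beside 21.8% of all genes tested. Icam1, which marks committed preadipocytes and is also a leukocyte adhesion molecule, rose from 3.16 ± 1.60 CPM in control FAPs to 59.9 ± 7.21 CPM in senescent FAPs (SD, n = 3 each), a log2 difference of 4.12 with a standard error of 0.27 (adjusted p = 1.31e-04). Vcam1, another adhesion molecule and a marker of activated FAPs, rose by 1.17 (adjusted p = 1.61e-04), and F3, tissue factor (CD142) of adipogenesis-regulating stromal cells, rose by 0.64 in log2 units (adjusted p = 0.00231). Tek and Fap were not past the threshold, and Gli1, with 9 to 67 reads, was not tested.

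General mesenchymal genes were mixed, with 2 of 11 higher and 2 lower, where 21.8% of all genes tested were higher and 24.3% lower. The collagen I genes Col1a1 and Col1a2 fell by 2.29 and 1.67 in log2 units (adjusted p = 0.0015 and 0.00396). Dcn, which encodes the proteoglycan decorin, rose from 62.3 ± 33.6 CPM in control FAPs to 197 ± 21.2 CPM in senescent FAPs (SD, n = 3 each), a log2 difference of 1.79 with a standard error of 0.34 (adjusted p = 0.00465), and Eng, which encodes endoglin, rose by 0.40. Cd44, Vim and Fn1 did not pass. With the replicate block, 3 of the 11 were higher and 3 lower, beside 24.2% and 26.7% of all genes tested. Those added were Itgb1 (log2 fold change −0.43, adjusted p = 0.0746, 0.0347 with the block) and Nt5e, the CD73 gene (0.68, 0.177 and 0.0139). Among 9 tested relatives of the markers, 1 rose (Ly6e, with Ly6c1 added under the block; 0.44, adjusted p = 0.00949) and 2 fell, Dpp9, a cytosolic relative of Dpp4 (−0.37, adjusted p = 0.0086, and 0.161 with library totals), and Kit, a receptor of the PDGF receptor family (−0.77, adjusted p = 0.00983), which had 10 to 60 reads.

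**Figure D4:**
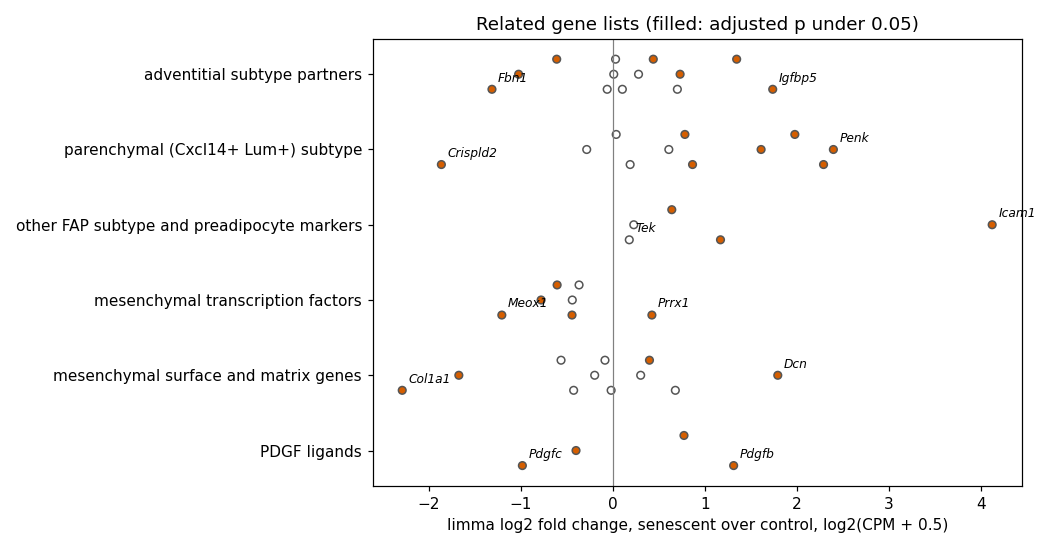
Limma log2 fold change, senescent over control, of each tested gene in 6 lists related to the markers (horizontal axis), with the lowest and highest gene of each list named. Filled points passed an adjusted p of 0.05. The Cxcl14 and Lum list lies mostly to the right of 0, and the list of Dpp4 and Pi16 partners lies on both sides.

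Markers of other cells that the sort could have left were measured beside these results, since Cd34 is also expressed by endothelial cells, Cd55 by leukocytes and Pdgfrb by pericytes. Leukocyte markers summed to 13.3 to 16.0 CPM in control and 29.3 to 35.8 CPM in senescent libraries. Of the 5 tested, 3 rose (Lyz2, Cd68 and Cd53), beside 21.8% of all genes tested. Ptprc, which encodes the CD45 used in the sort, Adgre1 and Tyrobp had no values to analyse here. Csf1r, the highest leukocyte marker over all 6 libraries, had 6.74 CPM in control and 7.56 CPM in senescent FAPs on average. Cd53, a leukocyte tetraspanin gene, was the highest in senescent FAPs and rose from 1.98 ± 1.67 CPM in control FAPs to 11.4 ± 2.74 CPM in senescent FAPs (SD, n = 3 each), 5.72-fold beside 6.63-fold for Cd55. Endothelial markers summed to 19.2 to 39.5 CPM in control and 23.8 to 31.2 CPM in senescent libraries, most of it from Tek, which FAPs also express. Of 4 tested, 2 rose (Pecam1 and Vwf) and 1 fell (Kdr), beside 21.8% and 24.3% of all genes tested. Pecam1, the CD31 gene, averaged 0.706 and 1.70 CPM in control and senescent FAPs, Cdh5 0.471 and 0.408 CPM, and Vwf 1.08 and 1.99 CPM. These were below the levels of Cd34 and Cd55 given above, but Tek and Kdr were not in every control culture. Tek averaged 20.1 CPM in control FAPs, near Cd34 at 22.5 CPM and above Cd55 at 7.78 CPM. In senescent FAPs Tek was lower than both, at 20.99 CPM. Kdr, at 3.28 CPM, exceeded Cd55, at 2.66 CPM, in control culture 1 and in no other culture. CPM are not corrected for gene length. The part of leukocytes and endothelial cells in the rise of Cd34 and Cd55 was not tested.

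Pericyte and smooth muscle markers summed to 4523 to 6479 CPM in control and 1717 to 2691 CPM in senescent libraries, nearly all of it Acta2, the smooth muscle actin that cultured FAPs also express. Of the 7 tested, 2 rose (Notch3 and Rgs5) and 3 fell (Acta2, Cspg4 and Mcam), with Abcc9 also higher under the replicate block (adjusted p = 0.0903, 0.0187 with the block), and Kcnj8 had 3 to 16 reads. Beside the counts of each cell type in this paragraph, 21.8% of all genes tested rose and 24.3% fell. With the block, 24.2% rose and 26.7% fell. The means of Cspg4 were 288 ± 59.2 CPM in control FAPs and 167 ± 10.1 CPM in senescent FAPs (SD, n = 3 each). Of the myogenic markers, Itga7, the α7-integrin used in the sort, rose from 11.1 ± 1.69 CPM in control FAPs to 20.2 ± 4.05 CPM in senescent FAPs (SD, n = 3 each), Des did not pass, and Pax7, Myf5, Myod1, Myog and Cdh15 had no values to analyse here. Tendon markers summed to 108 to 240.0 CPM in control and 87.1 to 182 CPM in senescent libraries, mostly Fmod, with Mkx higher and Tnmd lower of 5. Glial markers summed to between 3.28 and 10.6 CPM in the 6 libraries, with S100b higher, and no adipocyte marker of the 4 (Adipoq, Plin1, Lep and Cfd) had a value to analyse. Beside these, the lowest values in any library were 126 CPM for Pdgfra, 846 CPM for Pdgfrb and 220.4 CPM for Ly6a. They were 41.3 CPM for Thy1, 28.7 for Tcf7l2, 19.1 for Cd34 and 9.79 for Osr1. Those of the subtype markers were 2.93 CPM for Pi16, 2.66 for Cd55 and 0.742 for Dpp4. Cspg4, at 156 to 357 CPM over the libraries, and Fmod, at 70.3 to 199 CPM, overlapped the range of Pdgfra.

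The gene whose pattern over the 6 libraries was most like each marker was found by Pearson correlation of log2(CPM + 0.5) among up to 10617 genes with a mean of at least 5 CPM. It was Hp, r = 0.991, for Pdgfra, Dtx4, r = 0.989, for Pdgfrb, Lrrn4cl, r = 0.999, for Ly6a, Nnmt, r = 0.992, for Thy1 and D930016D06Rik, r = 0.997, for Cd34. It was Sh3bp5l, r = 0.999, for Osr1, Emp3, r = 0.963, for Tcf7l2, Klhl28, r = 0.994, for Pi16, Lxn, r = 0.983, for Dpp4 and Manea, r = 0.999, for Cd55. With so many genes and 6 libraries that share groups, cultures and scaling, values near 1 arise readily, and these names are a description. Lrrn4cl had 164, 86.8 and 177 CPM in the control and 246, 195 and 249 CPM in the senescent cultures 1, 2 and 3, with the low values of culture 2 that Ly6a showed. Nnmt had 30.5, 9.34 and 11.8 CPM in the control and 35.8, 14.7 and 13.1 CPM in the senescent cultures, with culture 1 highest in both groups by a smaller factor than for Thy1.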

How the data were processed

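Bulk RNA-seq was analysed from 3 control and 3 etoposide-treated FAP cultures, grouped by their labels. Per the paper's methods and the submitters' processing notes, stranded mRNA libraries were sequenced and scaled with edgeR (3.10) in R (3.6.0) on mm10. The aligner, the counting tool, the annotation and the filter on low counts are not given in the sources used here. The authors deposited 1 signal value per gene and library, CPM of edgeR's effective library size, with replicates not pooled. In units of 1 read, 100% of values in each library were whole to within 0.01, so reads were recovered. A line naming no gene, with 0.0041% to 0.0070% of reads, was left out.

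limma (3.58.1, R 4.3.3) was run with a variance trend on log2(CPM + 0.5) over genes reaching 0.5 CPM in 3 or more libraries, two-sided, with Benjamini-Hochberg adjustment over all genes tested, and a gene was called at an adjusted p under 0.05. Count models on the recovered reads (edgeR 4.0.16, DESeq2 1.42.0) were alternatives. The numbers of the cultures were taken to pair them because the deviations of same-numbered cultures from their group means correlated at 0.537, 0.308 and 0.207 over 14776 genes, each above 0.1. Between different numbers the correlations ran from −0.357 to 0.153, and the highest, control culture 2 with senescent culture 3, was above 0.1 as well. Deviations from a group mean cancel within the group, so part of these low values is forced and gives no separate support for the pairing. Going by Xist and Ddx3y, culture 2 of both groups came from other mice than cultures 1 and 3, and of the other sex. Nothing states whether the cultures otherwise came from separate mice. The p values measure the spread between these cultures, which without the block includes that difference. The scripts were run on simulated data in which libraries were independent and same-numbered cultures shared no effect. That run therefore did not check how the block handles such an effect. The single ratio was tested by exact permutation (scipy 1.17.1). Named were the 10 markers, the 3 genes with the smallest p of each related list, the most similar gene per marker, and the highest and missing markers of other cells; further genes, Xist and Brinp3 among them, were picked once their values were known. The markers and lists were chosen with earlier results of these data known.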

Additional observations from a re-analysis of the deposited data

How the results depend on the processing

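The number of markers called, 5, lay between 4 and 6 under other pseudocounts, filters and scalings, array weights (which added Pdgfrb), edgeR's and DESeq2's tests and the replicate block, and was 3 without a variance trend. It was between 2 and 4 with 1 library left out. Without the block it was 2 without both cultures numbered 1 and 1 (Cd34) without both numbered 3. These settings were chosen after the values were seen, and fewer samples entered those fits. With the replicate block and all cultures it was 6, and no other marker's call changed but that of Thy1. Under the block, Cd34, Cd55, Ly6a, Thy1 and Osr1 also passed in limma with each pair of same-numbered cultures left out in turn. Pi16 then passed without both cultures numbered 3 (adjusted p = 0.0471) but not without both numbered 1 (0.109) or 2 (0.0733). DESeq2 gave no adjusted p for Thy1. The number called over all 14776 genes moved with the setting as well, from 3218 higher and 3592 lower in the fit given above. With library totals alone the numbers were 4992 and 1929, with array weights 4519 and 5217, and without a variance trend 3121 and 3404. Without both cultures numbered 1 they were 2602 and 2870, and without both numbered 3 they were 1313 and 1360. With 1 library left out, those higher ranged from 2130 to 3405 and those lower from 2416 to 3875. A lower count in the fits with fewer cultures is thus not particular to the markers. The difference in the log2 ratio of Pdgfra to Pdgfrb ranged from 0.16 to 0.67 with 1 library left out, lowest without control culture 2, and was 0.44 in a paired comparison (exact sign-flip test, p = 0.25, the smallest for 3 pairs).

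Markers that did not pass changed sign in some settings. With array weights Pdgfra was at −0.081, Tcf7l2 at −0.11 and Dpp4 at −0.19, and with quantile normalization Pdgfrb was at 0.0075. Without both cultures numbered 1, with or without the block, Tcf7l2 was at −0.047 and Lef1 at −0.12, and without both numbered 2 Dpp4 was at −0.051. Ctnnb1 was at 0.16 with library totals and 0.16 with quantile normalization, and Lef1 at −0.030 with edgeR and −0.019 with DESeq2. With 1 library left out, the log2 fold change ranged from −0.054 to 0.40 for Pdgfra, −0.57 to 1.54 for Thy1, −0.042 to 0.11 for Tcf7l2 and −0.37 to 0.65 for Lef1. The cause of these sign changes was not tested. Dpp4 rested on the fewest reads of the 10 markers, and each group had 3 cultures.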
